A study of Homo sapiens with 6 samples.

Results

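The Notch genes described here are 10 receptors, ligands and targets, namely Notch1, Notch2, Notch3, Notch4, Jag1, Jag2, Dll1, Hes1, Hey1 and Heyl. They were taken by symbol from 6 RNA-seq libraries whose files each list 38986 genes, and all 10 were listed. The libraries form 2 groups of 3. The first is labelled as mCherry-positive 293T cells that overexpress wild-type STAT6, and the second as mCherry-positive Mock cells of genotype WT. Both groups were grown in the same serum-containing medium, and 293T is a transformed human embryonic kidney line. Neither the delivery of mCherry or STAT6 nor the use of separate cultures is stated in the labels. The 3 libraries of a group may therefore be technical repeats, and every p-value reflects only the spread among them.

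Notch is a signalling pathway between neighbouring cells. A ligand of the Jagged or Delta type on one cell binds a Notch receptor on the next, ADAM proteases and then gamma-secretase cut the receptor, and the freed intracellular domain enters the nucleus. There it joins the DNA-binding protein RBPJ and a Mastermind coactivator and switches on repressors of the Hes and Hey families. In mice, Notch1 and Notch2 signalling is known to maintain melanoblasts and melanocyte stem cells.

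The libraries labelled STAT6 held 19894773 to 23648304 counts and those labelled Mock held 22368757 to 29802693, so that 1 CPM, a count per 1000000 of the adjusted library total, stood for 19.4 to 30.6 counts. The symbols are those of mouse genes, with 0 rows for the human forms of the 10 symbols, although the labelled line is human. Stat6 itself went against its label: it stood at 35.1, 33.7 and 32.1 CPM in the libraries labelled STAT6 and at 95.2, 95.5 and 92.8 CPM in those labelled Mock (log2 fold change -1.49, SE 0.04). Of 7 markers of embryonic kidney, Pax8 and Six2 were at 0 in all 6 libraries, and 5 were under 1 CPM in each. The 7 pigment cell markers were all present and summed to 16705.35 to 16841.22 CPM in libraries labelled STAT6 and 14404.02 to 14749.97 CPM in libraries labelled Mock. Within that sum Tyr, which encodes tyrosinase, was far lower in the libraries labelled STAT6, at 29.1 ± 0.758 against 303 ± 5.29 CPM (SD, n = 3 each). Leukocyte markers summed to 3.72 to 4.12 CPM against 1.16 to 1.48 CPM, and keratinocyte markers to 5.51 to 7.30 CPM against 1.54 to 3.15 CPM. The mouse symbols and the abundant pigment cell transcripts do not match the labelled human kidney line. How this came about, and whether the group labels are exchanged, cannot be told from these data. Exchanged labels would turn every direction. Directions below follow the labels, as the libraries labelled STAT6 relative to those labelled Mock. In such bulk RNA, fewer cells of a type and less RNA per cell cannot be told apart.

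Among receptors, Notch2 was lower and Notch3 and Notch4 were higher in the libraries labelled STAT6, while Notch1 did not pass the test. The ligand Jag1 and the target Hes1 were both higher by more than 4 times. Of the 10 genes, 7 passed the filter on low counts and were tested, and 4 of these were called higher and 1 lower at an adjusted p under 0.05 (edgeR quasi-likelihood test). Over all 12938 genes tested, 72.6% were called, 35.8% higher and 36.8% lower, so the 71.4% called here lies near that share. At least 2-fold higher calls were 4 of the 7, against 10.6% of all genes tested, and 0 of the 7 were at least 2-fold lower, against 4.96%. Notch3 and Notch4 passed the filter through the libraries labelled STAT6 alone, so these 2 had to differ once they were tested, and the counts are given as a description.

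**Figure D1:**
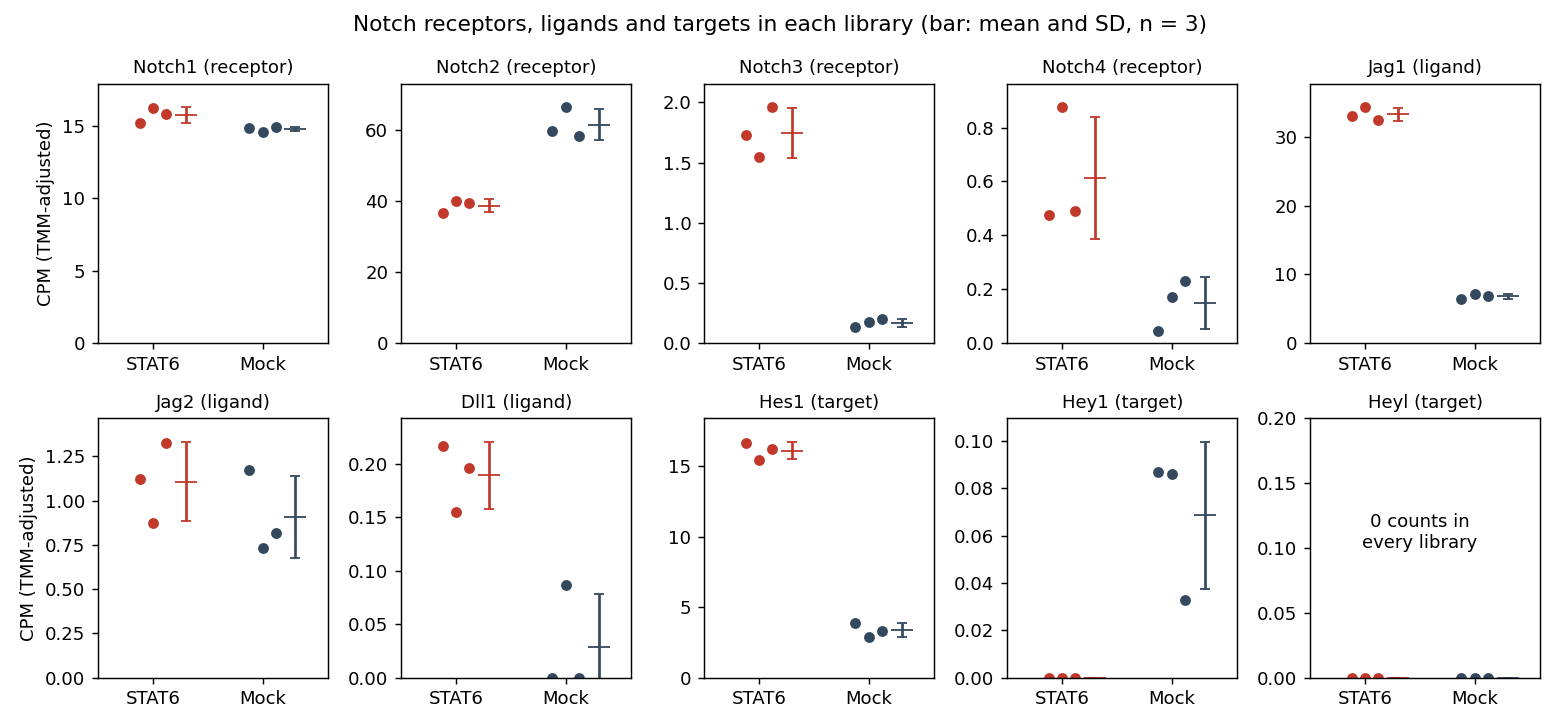
Level of each of the 10 genes in CPM scaled to the TMM-adjusted library total (vertical axes, each from 0), with the 3 libraries labelled STAT6 in red and the 3 labelled Mock in dark blue. Points are libraries, and the bar beside them is the mean with its SD, clipped at 0. The groups do not overlap for Notch1, Notch2, Notch3, Notch4, Jag1, Dll1, Hes1 and Hey1, beside 74.6% of all genes tested. Notch1 differs little, and Notch4, Dll1 and Hey1 have few counts. The groups are mixed for Jag2, and Heyl is at 0 throughout.

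Notch1, the receptor best known from T cell development, was measured at 15.2, 16.3 and 15.8 CPM in the libraries labelled STAT6, against 14.9, 14.6 and 14.9 CPM in those labelled Mock. The 3 first values all lay above the 3 others, as one group lay wholly to one side of the other for 74.6% of all genes tested. The difference was small, a log2 fold change of 0.09 (SE 0.07), and did not pass (adjusted p = 0.268, edgeR). The ratio of summed counts was 1.06, with a 95% counting interval of 0.975 to 1.16.

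Notch2, a receptor that acts with Notch1 in mouse melanoblasts, gave 36.5, 39.9 and 39.5 CPM in the libraries labelled STAT6. It gave 59.6, 66.3 and 58.4 CPM in the libraries labelled Mock. Every library labelled STAT6 was therefore below every library labelled Mock. The means were 38.7 ± 1.85 and 61.4 ± 4.29 CPM (SD, n = 3 each), so that Notch2 was 1.59-fold lower (log2 fold change -0.67, SE 0.05, adjusted p = 1.54e-13, edgeR). A test for a change beyond 1.5-fold did not pass (adjusted p = 0.0758, edgeR glmTreat).

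Notch3, a receptor typical of vascular smooth muscle and pericytes, had 40, 30 and 40 counts in the libraries labelled STAT6 and 3, 4 and 6 in those labelled Mock. It was close to undetected in the second group, at 1.75 ± 0.208 against 0.166 ± 0.0334 CPM (SD, n = 3 each). The log2 fold change was 3.33 (SE 0.35, adjusted p = 2.12e-10, edgeR), the largest rise among the 7 tested Notch genes. Since Notch3 passed the filter through the libraries labelled STAT6 alone, it had to be higher once tested. Markers of mural cells and fibroblasts also differed, with a sum over 7 genes of 81.74 to 89.15 CPM in libraries labelled STAT6 and 21.05 to 23.38 CPM in libraries labelled Mock. Col1a1 made up most of the first sum at 78.7 ± 3.14 CPM, against 4.85 ± 0.421 CPM in the libraries labelled Mock. The smooth muscle actin gene Acta2 was also higher, at 2.43 ± 0.591 against 0.289 ± 0.0503 CPM. Acta2 passed the filter through the libraries labelled STAT6 alone, so it had to be higher once tested. The pericyte marker Rgs5 had 6 counts against 1. The mural receptor gene Pdgfrb ran the other way, at 3.50 ± 0.445 against 16.2 ± 1.07 CPM, and the fibroblast markers Dcn and Lum had 0 counts in the libraries labelled STAT6 and 1 count each over those labelled Mock. The part of other cells in the Notch3 difference was not tested.

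Notch4, a receptor best known from endothelium, had 11, 17 and 10 counts in the libraries labelled STAT6 and 1, 4 and 7 in those labelled Mock. The groups did not overlap, though the counts were few, and the second library labelled STAT6 stood above the other two. Its log2 fold change was 1.92 (SE 0.50, adjusted p = 0.000838, edgeR), and leaving out each library in turn gave 1.54 to 2.42. Since Notch4 passed the filter through the libraries labelled STAT6 alone, it had to be higher once tested. The 6 endothelial markers summed to 0.69 to 1.03 CPM in libraries labelled STAT6 and 0.04 to 0.39 CPM in libraries labelled Mock. Pecam1 had 18, 18 and 9 counts in libraries labelled STAT6 and 1, 0 and 7 in libraries labelled Mock. Cdh5 and Emcn, which define endothelium, had 0 counts in all 6 libraries, and Kdr had 1 count in all.

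Set against each other within a library, where sequencing depth and gene length cancel between groups, Notch2 and Notch1 changed their proportion. There were 2.40, 2.45 and 2.50 Notch2 counts per Notch1 count in the libraries labelled STAT6 and 4.01, 4.54 and 3.91 in those labelled Mock. The groups did not overlap, and the exact permutation test (2-sided, over 20 assignments) gave p = 0.1, the smallest it can give with 3 libraries against 3. This ratio and the 2 further ratios below were chosen after the values had been seen, and each of the 3 reached the same p, which adjusts to 0.1 over the 3.

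Of the 3 ligands 2 were tested, and Jag1 passed. Jag1, a Jagged-type ligand on the signal-sending cell, had 33.2, 34.4 and 32.5 CPM in the libraries labelled STAT6, against 6.42, 7.16 and 6.84 CPM in those labelled Mock. The lowest STAT6 library was far above the highest Mock library. Jag1 thus rose 4.90-fold (log2 fold change 2.29, SE 0.07, adjusted p = 3.17e-25, edgeR). Only 5.21% of all tested genes had a larger fold change in either direction.

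Jag2, the other Jagged-type ligand, was low and did not pass. It had 26, 17 and 27 counts in the libraries labelled STAT6 and 27, 17 and 25 in those labelled Mock, and the groups overlapped. Its log2 fold change was 0.30 (SE 0.29, adjusted p = 0.348, edgeR), and the 95% counting interval of its ratio ran from 0.875 to 1.75, which does not reach the fold seen in Jag1. Jag1 counts per Jag2 count were 29.5, 39.3 and 24.6 against 5.48, 9.77 and 8.36, with no overlap (exact permutation test, p = 0.1, the smallest possible).

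Dll1, a Delta-type ligand, was too low to be tested. It had 5, 3 and 4 counts in the libraries labelled STAT6 and 0, 2 and 0 in those labelled Mock. The summed counts of 12 and 2 gave a ratio of 7.32, with a wide 95% counting interval of 1.63 to 67.3. With no filter on low counts the fit gave Dll1 a log2 fold change of 2.61 (adjusted p = 0.0462, edgeR).

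Of the 3 targets, Hes1 was the one tested. This gene encodes a basic helix-loop-helix repressor that responds to Notch in many tissues and also to other signals. It was measured at 16.6, 15.4 and 16.2 CPM in the libraries labelled STAT6, against 3.86, 2.89 and 3.30 CPM in those labelled Mock. The groups were far apart, with means of 16.1 ± 0.622 and 3.35 ± 0.489 CPM (SD, n = 3 each). The log2 fold change, 2.26 with an SE of 0.11 (adjusted p = 4.87e-20, edgeR), was close to that of Jag1 and corresponds to a 4.81-fold higher level.

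Hey1 and Heyl were too low to be tested. Hey1, a repressor related to Hes1, had 0 counts in each library labelled STAT6 and 2, 2 and 1 counts in those labelled Mock. The 95% counting interval of the ratio, 0 to 1.33, included equal levels. Heyl had 0 counts in all 6 libraries, which by the limit of 3 counts that 0 allows is up to 0.0476 CPM over the libraries labelled STAT6 and 0.0391 CPM over those labelled Mock. Floors and intervals cover counting error only.

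**Figure D2:**
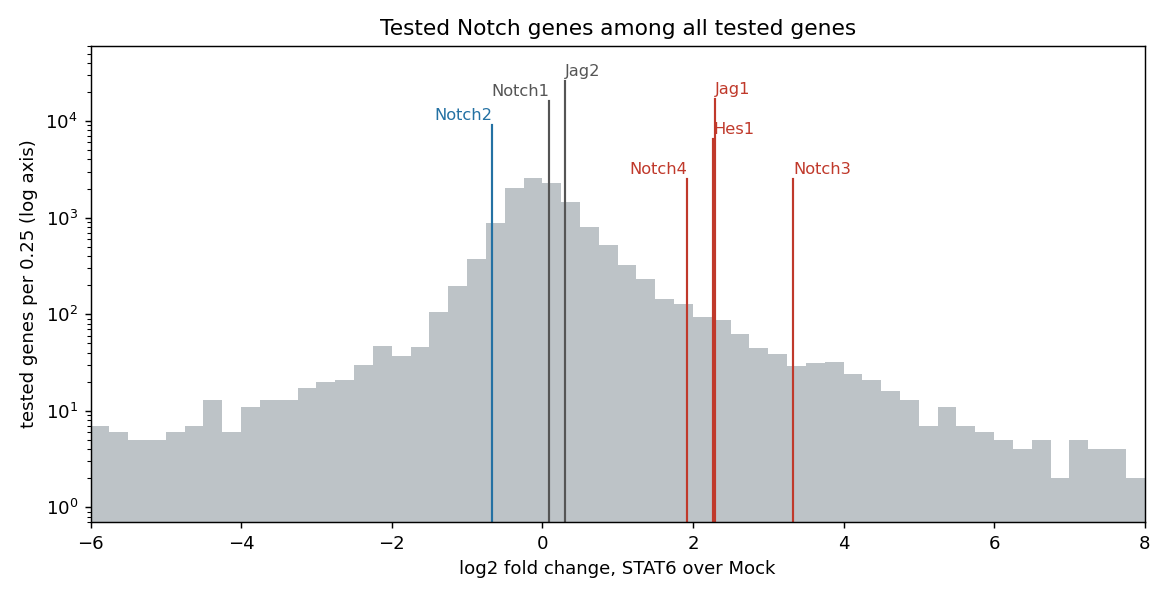
Number of tested genes (vertical log axis) by log2 fold change, STAT6 label over Mock label (horizontal axis, bins of 0.25 from -6 to 8), with lines at the 7 tested Notch genes. Red lines were called higher, the blue line lower and grey lines did not pass. Notch3, Jag1, Hes1 and Notch4 stand in the right tail, and Notch1 and Jag2 near the centre.

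The log2 fold changes of the 7 genes ran from -0.67 for Notch2 to 3.33 for Notch3. Those of all genes tested ran from below -9 to above 10. A larger absolute fold change than that of Notch3 was found for 2.77% of tested genes. The corresponding shares were 5.27% for Hes1, 6.75% for Notch4, 25.8% for Notch2, 56.4% for Jag2 and 85.7% for Notch1. The median log2 fold change of all genes was -0.00.

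The other genes of the pathway were read from a list of 55 in 8 roles. Of these, 44 were tested, 25 being called higher, 11 lower and 8 neither, which is 81.8% called beside 72.6% of all genes. The median log2 fold change of the 44 was 0.21. Of the 44, 5 passed the filter through the libraries labelled STAT6 alone. At least 2-fold changes numbered 8, all of them higher, beside 10.6% of all genes at least 2-fold higher and 4.96% lower. Of these 8, the 5 that passed the filter through the libraries labelled STAT6 alone (Dner, Dll3, Lfng, Tle2 and Hey2) had to be higher once tested, so nothing is read from this count. From each role the up to 3 genes with the smallest adjusted p are named below.

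**Figure D3:**
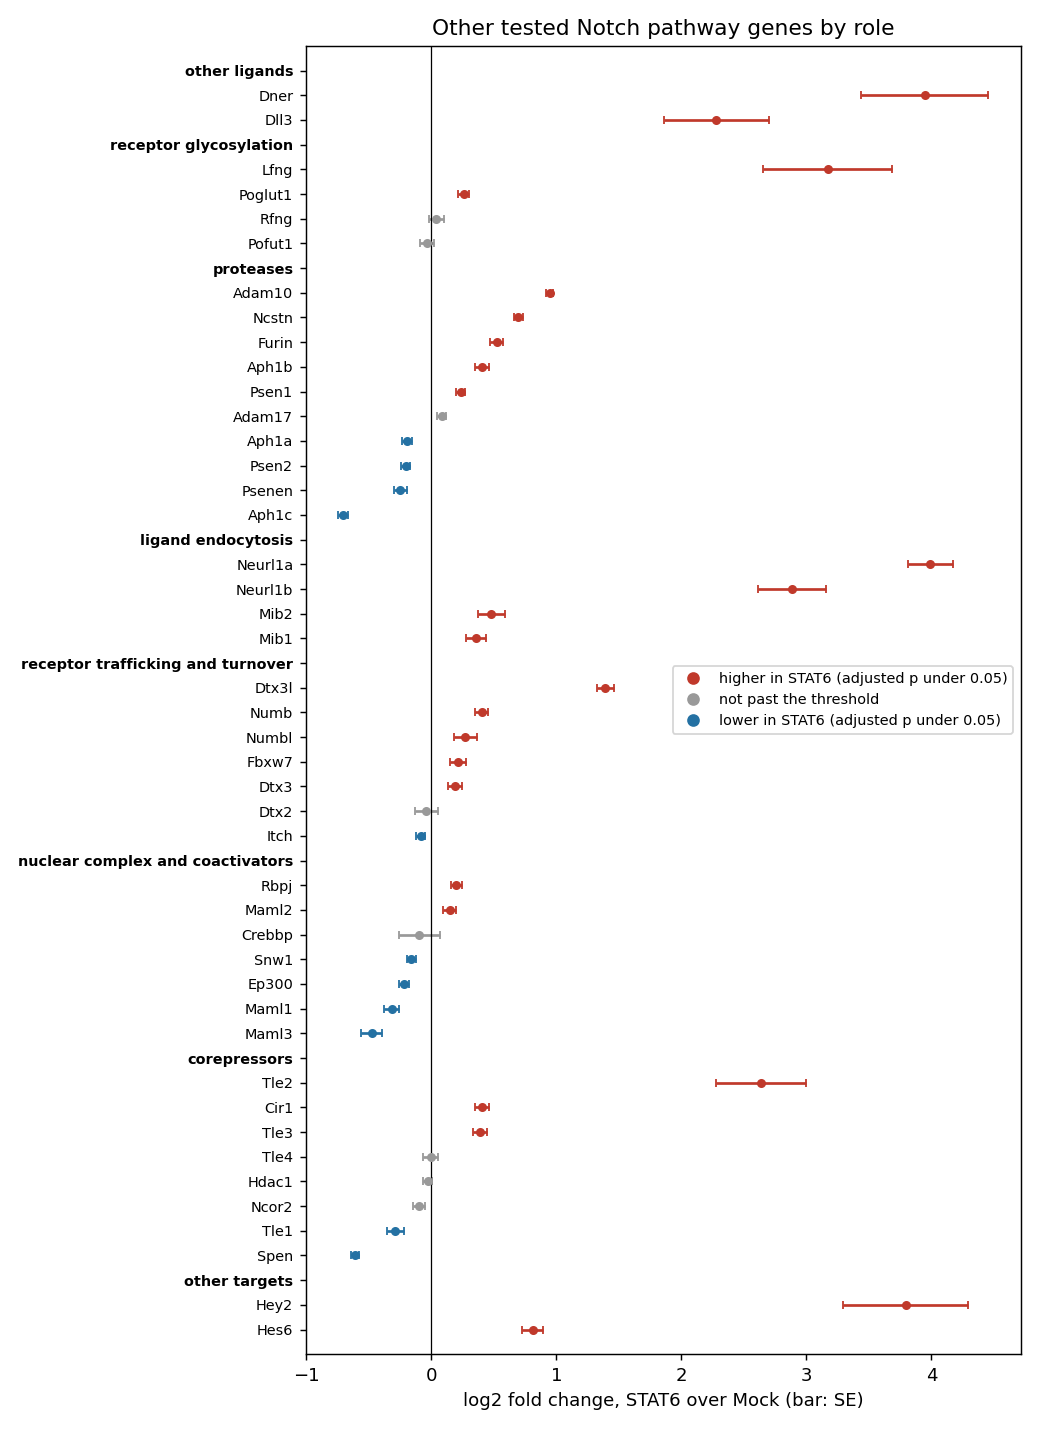
Log2 fold change, STAT6 label over Mock label (horizontal axis, with SE), for the 44 tested genes of the pathway list, by role. Red points were called higher, blue lower and grey neither. Neurl1a, Dner and Hey2 lie farthest to the right in this fit, near 4, and no lower call reaches -1.

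Of 5 further ligands, 2 were tested and both were higher, from very low levels, beside 35.8% of all genes tested. Both passed the filter through the libraries labelled STAT6 alone, so they had to be higher once tested. Dner, a transmembrane EGF-repeat protein described as a Notch ligand in mouse neurons, had 26, 23 and 19 counts in the libraries labelled STAT6 and 0, 3 and 2 in those labelled Mock. Its log2 fold change was 3.95 (SE 0.51, adjusted p = 1.54e-08, edgeR), and it was 4.67 without the second Mock library. Dll3, a divergent Delta-type protein that does not activate Notch from a neighbouring cell, had 21, 18 and 14 counts against 3, 4 and 6 (log2 fold change 2.28, SE 0.42, adjusted p = 1.11e-05). Dll4 had 0, 1 and 2 counts against 2 in each library labelled Mock, and Dlk1 had none.

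Among the enzymes that add sugars to the receptor's EGF repeats, 2 of 4 tested were higher and none was lower. Of these 2, Lfng passed the filter through the libraries labelled STAT6 alone, so it had to be higher once tested. Over all genes tested, 35.8% were called higher and 36.8% lower. Lfng, the Fringe enzyme that favours response to Delta over Jagged ligands, had 18, 12 and 17 counts in the libraries labelled STAT6 and 1, 3 and 2 in those labelled Mock (log2 fold change 3.17, SE 0.52, adjusted p = 1.44e-06, edgeR). Poglut1, which attaches O-glucose, rose slightly, to 60.5 ± 1.97 CPM against 50.6 ± 2.50 CPM (log2 fold change 0.26). Rfng, a related Fringe enzyme, did not pass, with a log2 fold change of 0.04 (adjusted p = 0.57, edgeR) that was -0.035 with library totals alone and -0.0099 without the third library labelled STAT6.

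Among 10 genes for proteases that cut the receptor, 5 were called higher and 4 lower, while 1 did not pass. Calls in both directions were also common over all genes tested, at 35.8% higher and 36.8% lower, so nothing is read from the split. Adam10, which makes the ligand-induced cut outside the membrane, was at 355.9, 352.5 and 347.3 CPM in the libraries labelled STAT6 and 183.2, 186.3 and 178.8 CPM in those labelled Mock. It thus rose 1.93-fold (log2 fold change 0.95, SE 0.03, adjusted p = 1.45e-24, edgeR). Within gamma-secretase, the complex that makes the final cut, all 7 listed subunit genes were called, 3 higher and 4 lower, beside 35.8% higher and 36.8% lower of all genes tested. Ncstn, which encodes the substrate-binding subunit nicastrin, rose to 150.0 ± 0.953 CPM, against 92.6 ± 1.66 CPM (log2 fold change 0.70, adjusted p = 4.38e-19).

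Aph1c, which encodes an alternative scaffold subunit, fell to 67.7 ± 2.25 CPM in the libraries labelled STAT6, against 110.3 ± 3.57 CPM in those labelled Mock (log2 fold change -0.70, SE 0.04, adjusted p = 1.37e-17, edgeR). Its close mouse paralog Aph1b, chosen after its values were seen, rose by 0.41 on the log2 scale. There were 1.78, 2.02 and 1.79 Aph1c counts per Aph1b count in the first group and 3.95, 4.17 and 3.89 in the second (exact permutation test, p = 0.1, the smallest possible). Reads shared by these 2 genes could be split between them, so each level alone is uncertain.

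**Figure D4:**
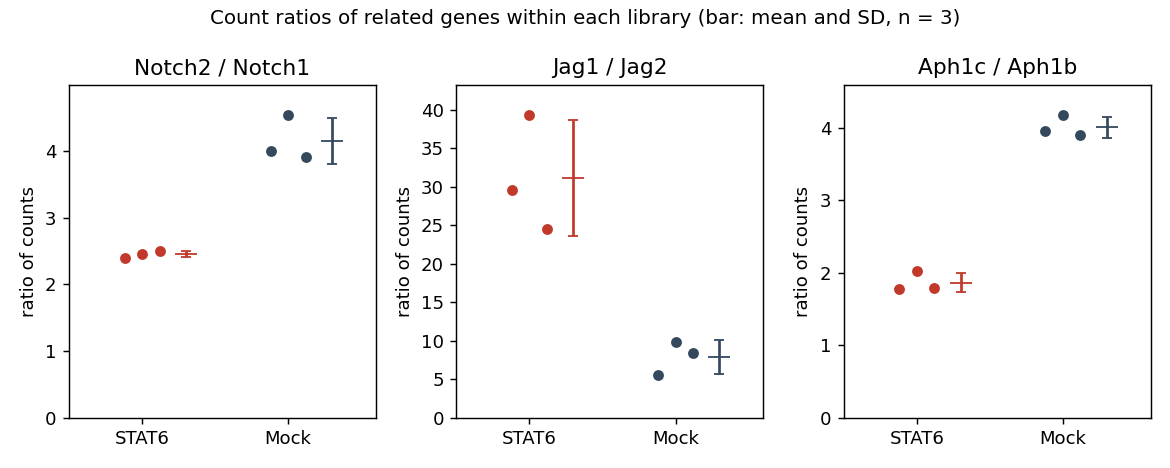
Ratio of the counts of 2 related genes within each library (vertical axes, from 0) for Notch2 over Notch1, Jag1 over Jag2 and Aph1c over Aph1b, with libraries labelled STAT6 in red and Mock in dark blue. Points are libraries and bars the mean with its SD. The groups do not overlap in any of the 3 ratios, with means of 2.45 against 4.15, 31.1 against 7.87 and 1.86 against 4.01.

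The 4 listed genes for ubiquitin ligases that drive endocytosis of ligands were all called higher, beside 35.8% of all genes tested. Neurl1a, a Neuralized-type ligase, had 208, 210 and 212 counts in the libraries labelled STAT6 and 16, 17 and 15 in those labelled Mock. This was a 15.9-fold rise (log2 fold change 3.99, SE 0.18, adjusted p = 1.18e-20, edgeR). Neurl1b, its relative, rose by 2.88 (SE 0.27) on the same scale, and Mib2, one of the Mindbomb ligases, by 0.48 (SE 0.11).

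Of 7 tested genes for receptor trafficking and turnover, 5 were higher and 1 lower, beside 35.8% higher and 36.8% lower of all genes tested. Dtx3l, a Deltex-family ligase also known as an interferon-inducible gene, had 31.9, 34.3 and 33.9 CPM in the libraries labelled STAT6, against 11.5, 12.8 and 13.6 CPM in those labelled Mock (log2 fold change 1.39, SE 0.07, adjusted p = 9.98e-20, edgeR). Numb, which restrains Notch in cell fate decisions, rose by 0.41 on the log2 scale, and its groups did not overlap. Dtx3 rose by a little, 0.19 in log2 units (adjusted p = 0.00239), a call lost with library totals alone (0.11, adjusted p = 0.0612).

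Of the 7 genes of the nuclear complex and its coactivators, 2 were called higher and 4 lower, beside 35.8% higher and 36.8% lower of all genes tested, and none changed by 2-fold. Rbpj, the DNA-binding partner of all 4 receptors and named here for that role after its values were seen, was at 61.4, 63.7 and 64.3 CPM in the libraries labelled STAT6 and 55.0, 56.8 and 53.2 CPM in those labelled Mock (log2 fold change 0.20, SE 0.04). The Mastermind coactivators Maml3 and Maml1 were lower by log2 fold changes of -0.48 and -0.32, and the acetyltransferase gene Ep300 by -0.22.

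Among the 8 corepressor genes, 3 were called higher and 2 lower, beside 35.8% higher and 36.8% lower of all genes tested. The other 3 did not pass. Spen, a large corepressor that binds RBPJ, fell to 264.5 ± 8.88 CPM in the libraries labelled STAT6, against 403.2 ± 12.9 CPM in those labelled Mock (log2 fold change -0.61, SE 0.03, adjusted p = 2.05e-18, edgeR). Cir1, another RBPJ-binding corepressor, rose by 0.41 on the log2 scale. Tle2, of the Groucho family that Hes and Hey proteins recruit, had 39, 25 and 30 counts against 3, 9 and 6 (log2 fold change 2.64, SE 0.36). Of the 3 called higher, Tle2 passed the filter through the libraries labelled STAT6 alone, so it had to be higher once tested.

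Of 7 further Hes, Hey and Nrarp genes, 2 were tested and both were higher, beside 35.8% of all genes tested. Of these 2, Hey2 passed the filter through the libraries labelled STAT6 alone, so it had to be higher once tested. Hey2, a target related to Hey1, had 18, 30 and 35 counts in the libraries labelled STAT6 and 0, 2 and 5 in those labelled Mock. Its log2 fold change was 3.79 (SE 0.50, adjusted p = 5.11e-08, edgeR), and it was 4.77 without the third Mock library. Hes6, which is known to oppose Hes1 rather than to act as a classical Notch target, had 15.1, 15.7 and 15.1 CPM against 8.33, 9.22 and 8.60 CPM (log2 fold change 0.81, SE 0.08, adjusted p = 8.11e-11). Hes5 had 2, 0 and 1 counts against 1, 0 and 0, and Nrarp, a direct target in mouse, had 2, 0 and 0 against 0 in all libraries labelled Mock.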

How the data were processed

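The deposited files give 1 whole-number count per gene symbol and library, with no normalization by the authors in the files. Per the submitters' processing notes, FastQC, STAR, Salmon and edgeR were used with the human build GRCh37, without versions. Not given in the sources used here are the counting step, strand setting and filters. Per the labels' protocols, the library kit was a stranded one for mRNA. Only 17 of 38986 symbols matched a human symbol in the same case, and 16671 did in capitals. No mouse sequence was used, so no coordinates or sequences are given.

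Counts were fitted with edgeR 4.0.16 in R 4.3.3 (filterByExpr, TMM, robust quasi-likelihood fit, 2-sided test, group as the only term), with Benjamini-Hochberg adjustment over all 12938 genes tested. The fit was tested on simulated data. CPM values use the TMM-adjusted totals. The 10 genes and the lists were chosen with earlier results of these data known. From each role of the pathway list, the 3 tested genes with the smallest adjusted p are named, with all 10 genes. Within a group, the median chi-square between 2 libraries was 1.46 to 2.48 times that of counting noise, and all 6 libraries were kept as separate samples. Alternatives used other scalings, filters and thresholds, DESeq2 1.42.0, limma-voom (limma 3.58.1), a replicate block and each library left out.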

Additional observations from a re-analysis of the deposited data

How the results depend on the processing

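Of the Notch genes tested, Jag1 and Hes1 stayed higher and past the threshold under each alternative. Notch3 and Notch4 did so under each alternative that tested them. These 2 passed the main filter through the libraries labelled STAT6 alone, so nothing is read from their staying higher. Notch4 was not tested with a filter of 1 CPM in 3 libraries, which left 4 calls. Jag2 and Notch1 passed under none. With no filter 6 were called, Dll1 being added (log2 fold change 2.61, adjusted p = 0.0462). In a test for a change beyond 1.5-fold (glmTreat), 0 of the Notch genes were called lower, since Notch2 no longer passed (adjusted p = 0.0758). It called 4 higher, Notch3 and Notch4 among them. The same test called 12 of the 44 tested genes of the pathway list, 11 higher and 1 lower. Over all genes tested it called 21.5%, or 2779, with 1807 higher and 972 lower. Of the 11 higher, Dner, Dll3, Lfng, Tle2 and Hey2 passed the filter through the libraries labelled STAT6 alone, so nothing is read from the split. Among those named, Poglut1, Aph1b, Mib2, Numb, Dtx3, Rbpj, Maml3, Maml1, Ep300, Spen and Cir1 were no longer called. Rfng, which passed under none, changed sign with library totals alone (-0.0348) and without STAT6 replicate 3 (-0.00987), the libraries left out in turn giving -0.00987 to 0.0683; the cause was not tested. The numbers in the labels were not taken to pair the libraries in the main fit. Deviations of same-numbered libraries correlated weakly, at 0.0519, 0.102 and 0.031. All but 1 of the 6 libraries did correlate best with their own number, so a pairing is not excluded. With the replicate number as a block, 5 of the Notch genes, 37 of the pathway list and 9422 of all genes were called. The low counts of Dll1, Hey1 and Heyl limit what can be said of them.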
